A study of Mus musculus with 3 samples.

Results

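The genes for the proteins of the cytosolic ribosome were followed in the open chromatin of embryonic mouse liver. Members were the GENCODE protein-coding genes whose symbol is Rpl or Rps followed by a digit, together with Rplp0, Rplp1, Rplp2 and Rpsa. The Rps6k kinases and names ending in -ps, with or without a number, were left out. This gave 86 genes of 21938 protein-coding genes with an annotated start. They were spread over 19 chromosomes, with 14 on chromosome 7 and 4 on the X chromosome. The symbols cover 43 genes of the large subunit, 31 of the small subunit including Rpsa, and 3 of the stalk (Rplp0, Rplp1 and Rplp2). A further 8 were paralogs with a symbol of their own, and 1, Rps19bp1, codes for a binding partner of Rps19 and not for a ribosomal protein.

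A ribosome holds 1 copy of nearly every one of these proteins, and the small and the large subunit are assembled in the nucleolus from ribosomal RNA and proteins made in the cytoplasm. Their mRNAs typically begin with a cytosine and a run of pyrimidines, the 5′ terminal oligopyrimidine tract, through which translation of the whole set responds to growth signals. Red cell precursors are sensitive to their supply: in humans, loss of 1 copy of several of these genes causes Diamond-Blackfan anemia, a failure of red cell production.

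The assay was DNase-seq, in which DNase I cuts accessible chromatin and the sequenced cut sites mark open elements. All 3 libraries belong to 1 group: liver of embryos at 13.5 days, of a mixed C57BL/6N and 129 strain homozygous for a globin mutation that removes HS2 and HS3, elements upstream of the beta-globin genes. The 3 carry biological replicate numbers 1 to 3 and separate biosamples under 1 donor label. Sex was not collected, and whether a replicate is 1 embryo or a pool is not stated. Every library carries the deletion. Without a library of unaltered liver there were no conditions to compare, and no test was run. The spread between the 3 replicates, which may be in part technical, is the only measure of error.

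The value for a promoter is the signal of the strongest peak, in the shorter of the peak lists the authors deposited for each replicate, within 500 bp of any annotated start. This signal gives the tallest point of the peak as a cut density normalized for depth. The normalization is for comparing replicates, and levels between genes were compared as order only. A promoter was called open where peaks of all 3 replicates, joined by at least 1 bp, reached that window. The shorter lists held 28209, 57314 and 41319 peaks in replicates 1, 2 and 3, and the footprint lists 126616, 194898 and 179791 entries. The steps between signal values correspond to 79.4, 119.5 and 132.7 M cuts, if 1 step is 1 cut. All 6 markers of red cell precursors were open in all 3 replicates, with summed signals of 45.7, 69.2 and 44.8. They were uneven, from Gata1 (1.71, 2.94 and 1.82) and Klf1 (2.29, 3.20 and 2.55) to Epb41 (16.7, 26.2 and 17.0). Of 5 hepatoblast markers none was open in all 3, their summed signals were 0.731, 2.99 and 0, and Alb and Afp had no peak in any replicate. Of the 8 markers of macrophages, endothelial cells, and T and NK cells none was open in all 3. In bulk tissue, fewer cells of a type and less accessibility per cell cannot be told apart.

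Of the 86 genes, 82 were open in all 3 replicates, a share of 95.3%, beside 50.9% of all protein-coding genes (11166 of 21938). Every one of the 43 large subunit genes, the 31 small subunit genes and the 3 stalk genes was among them, as was Rps19bp1. The paralogs were divided, with 4 of 8 open. The 4 that were not open are the same 4 genes in each replicate, and none of them had a peak in any shorter list.

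**Figure D1:**
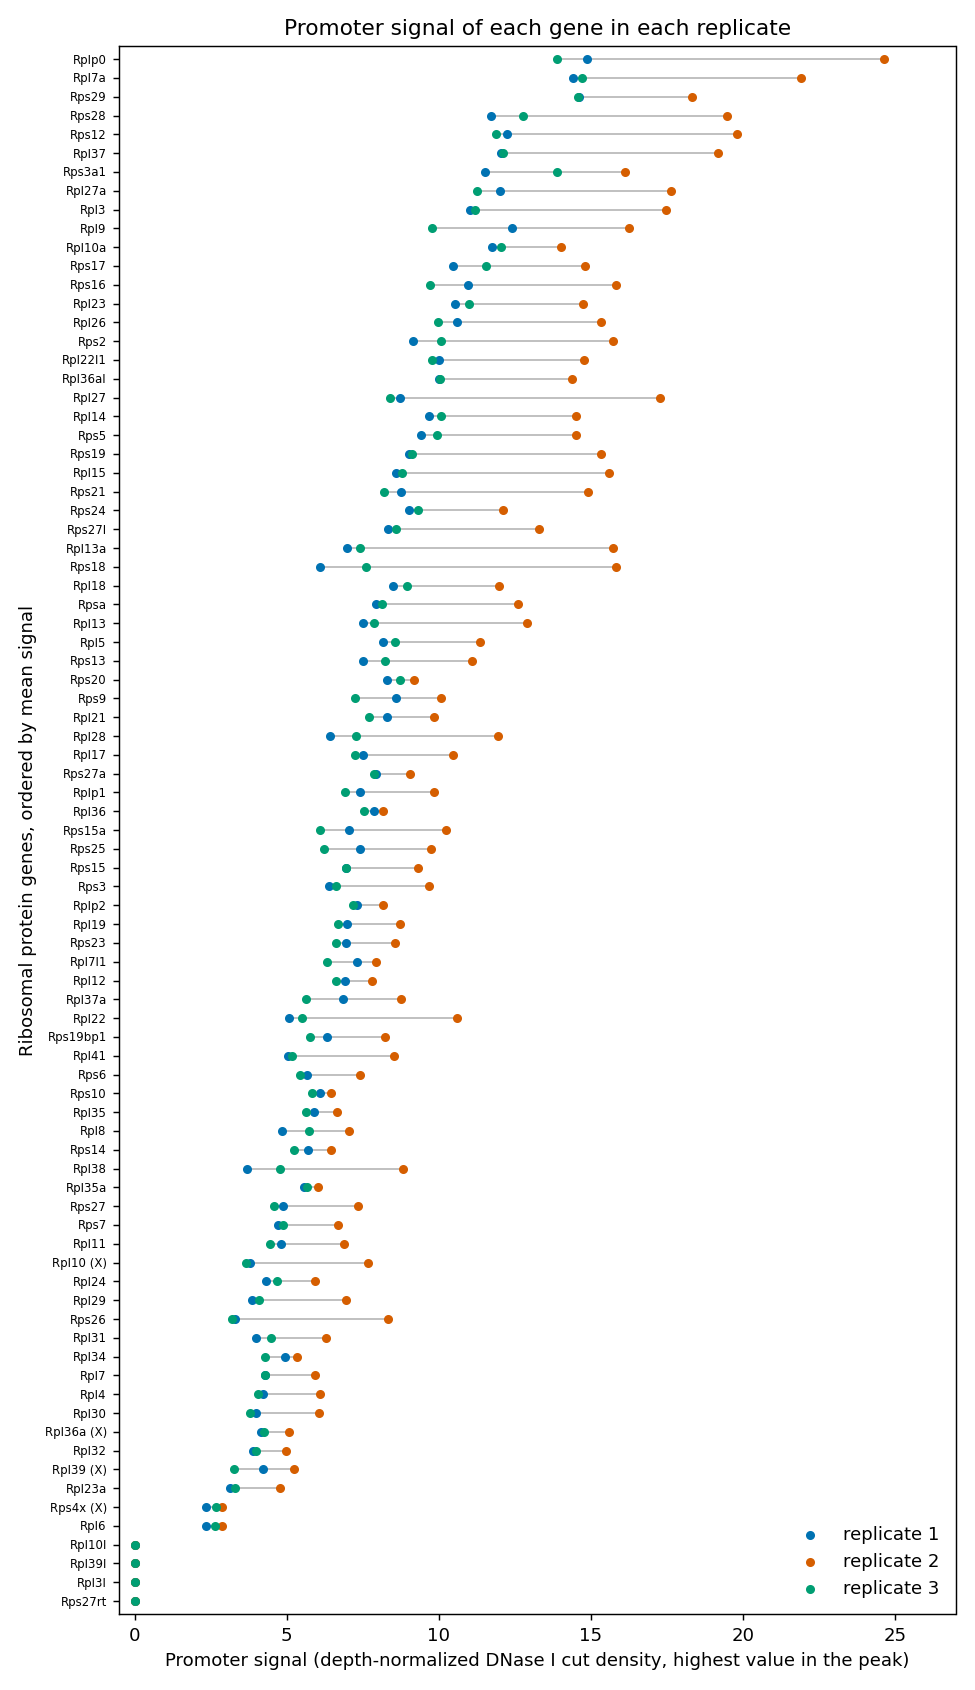
Each row is 1 of 83 of the 86 genes, ordered by mean signal, and each point is the promoter signal in 1 replicate (depth-normalized cut density, highest value in the peak; a grey line joins the lowest and highest replicate; X marks X-linked genes). Replicate 2 is the rightmost point for all 79 open genes drawn, and Rpl10l, Rpl39l, Rpl3l and Rps27rt sit at 0.

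The paralogs without an open promoter are Rpl3l, the counterpart of Rpl3 known from skeletal and heart muscle, Rpl10l and Rpl39l, which are known from the male germ line, and Rps27rt. In the file of local cut density, 0 bases within 500 bp of the main start of Rpl3l or Rps27rt had a false discovery rate (FDR) below 0.05 in any replicate. Rpl10l had 21 such bases of 1001 in replicate 1 and 0 in the others, and Rpl39l had 98 in replicate 2 and 0 in the others. No base near these 4 starts was below 0.001. By comparison Rps4x, one of the weakest open promoters, had 628, 706 and 578 bases below 0.05. The share of 32-base words that occur once in the genome was 100% around Rpl39l and 99.8% around Rpl3l, but 74.4% around Rpl10l and 59.1% around Rps27rt, and reads from a repeated word have no unique place. In the longer lists 1 of the 4, Rpl39l, had a peak in 1 replicate, and none was open in all 3.

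The paralogs with an open promoter reached the level of the subunit genes. Rpl22l1, the paralog of Rpl22, had signals of 10.0045, 14.8 and 9.76 in replicates 1 to 3, and Rpl22 itself had 5.07, 10.6 and 5.50. The lowest value of Rpl22l1 was below the highest value of Rpl22, so their ranges overlap, but within each replicate Rpl22l1 was the higher. Rpl36al, a close copy of the X-linked Rpl36a, had 10.02, 14.4 and 10.05, all above the 4.16, 5.09 and 4.25 of Rpl36a. Rps27l had 8.33, 13.3 and 8.59 against 4.89, 7.33 and 4.60 for Rps27, and these ranges also did not overlap. Rpl7l1 had 7.32, 7.93 and 6.34. These pairs were set side by side after their values were seen.

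Among the 82 open genes the median signal was 7.31, 9.85 and 7.21 in replicates 1, 2 and 3, beside 5.09, 6.53 and 5.05 for the 11131 protein-coding genes that were open and had a peak in the window in each replicate. The median of the means over replicates was 7.96 (interquartile range 5.78 to 11.4), beside 5.60 for all open genes. Of the 82 genes, 63 lay above the median of all open genes. The plot of the distributions shows that the set is shifted over most of its range, while its highest values stay within those of other genes.

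**Figure D2:**
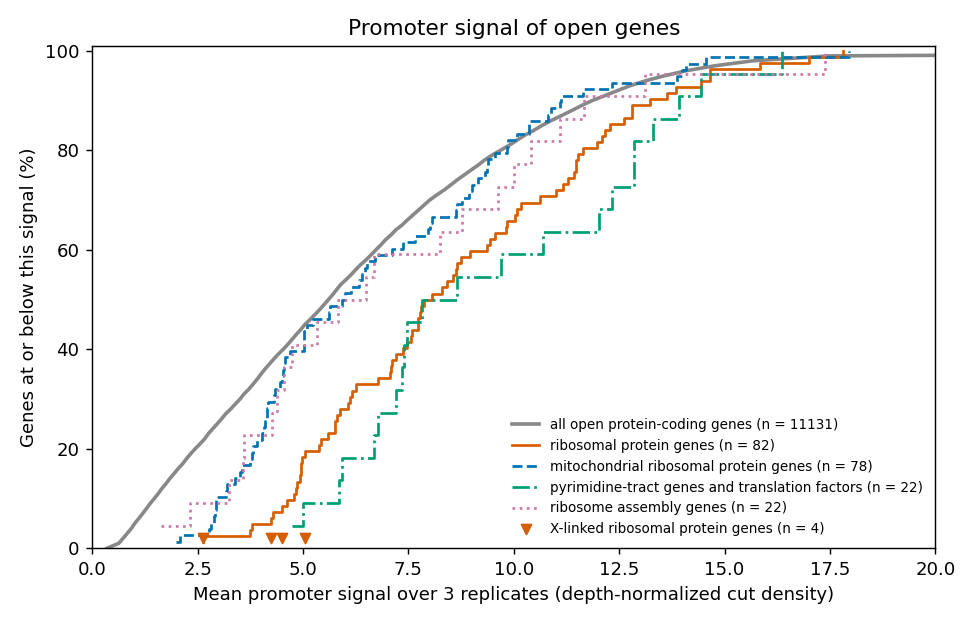
Cumulative share of open genes (y axis, percent) against the mean promoter signal over 3 replicates (x axis, depth-normalized cut density; the curve of all open genes runs on beyond the right edge), for the ribosomal protein genes, 3 other lists of translation genes and all open protein-coding genes. The ribosomal protein genes cross 50% near 7.96 and all open genes near 5.60, and triangles mark the 4 X-linked ribosomal protein genes.

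The strongest promoter was that of Rplp0, the scaffold of the stalk that recruits elongation factors to the ribosome. Its signal was 14.9, 24.6 and 13.9, with a mean of 17.8 ± 5.94 (SD, n = 3), above 99.2% of open genes. Its partners in the stalk were lower: Rplp1 had 7.42, 9.84 and 6.92, and Rplp2 had 7.31, 8.16 and 7.20. The other 5 genes at the top were Rpl7a (17.0 ± 4.25, SD, n = 3), Rps29 (15.8 ± 2.16), Rps28 (14.7 ± 4.22), Rps12 (14.7 ± 4.48) and Rpl37 (14.4 ± 4.10). The ranges of the 6 over the replicates overlap. Within every replicate, however, Rplp0 and Rpl7a (14.4, 21.9 and 14.7) were above Rps28, Rps12 and Rpl37. Rps28 had 11.7, 19.5 and 12.8, Rps12 had 12.3, 19.8 and 11.9, and Rpl37 had 12.1, 19.2 and 12.1. All other pairs among the 6 changed order between replicates.

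The weakest open promoter was that of Rpl6, a large subunit protein, with 2.34, 2.88 and 2.64 (2.62 ± 0.268, SD, n = 3). Rps4x, the X-linked small subunit gene, was indistinguishable from it at 2.36, 2.86 and 2.69 (2.64 ± 0.257). Their means were above 21.6% and 21.7% of open genes. Among the next were Rpl23a with 3.14, 4.78 and 3.31, Rpl39 with 4.23, 5.24 and 3.25, and Rpl32 with 3.89, 4.98 and 3.98. The ranges of Rpl6 and Rps4x did not overlap those of these 3. Between the weakest and the strongest subunit or stalk gene the mean signal thus ran from 2.62 to 17.8.

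Printed here are the promoters of the strongest gene, of Rps19, the small subunit gene first linked to Diamond-Blackfan anemia, and of the weak Rps4x, from 130 bp before to 29 bp after the main annotated start. The sequences come from the RefSeq copy of GRCm38 (mm10), read 5′ to 3′ on the gene's strand. Capitals mark bases inside a footprint, a short stretch protected from cutting within an open region, in all 3 replicates.
Rplp0 (chr5:115559337-115559496, plus strand): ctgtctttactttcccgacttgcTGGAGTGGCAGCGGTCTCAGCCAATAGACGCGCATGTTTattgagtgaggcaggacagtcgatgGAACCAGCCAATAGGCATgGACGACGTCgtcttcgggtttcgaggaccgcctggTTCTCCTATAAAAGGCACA
Rps19 (chr7:24884241-24884400, plus strand): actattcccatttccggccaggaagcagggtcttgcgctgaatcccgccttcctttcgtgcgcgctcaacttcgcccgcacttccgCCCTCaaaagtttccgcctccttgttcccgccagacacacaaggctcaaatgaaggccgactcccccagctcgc
Rps4x (chrX:102189365-102189524, minus strand): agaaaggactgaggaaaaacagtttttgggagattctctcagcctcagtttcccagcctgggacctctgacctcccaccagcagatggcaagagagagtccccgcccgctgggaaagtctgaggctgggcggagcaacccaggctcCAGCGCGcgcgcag
In Rplp0, 85 of the 160 bases were footprinted in all 3 replicates, and the capitals hold a CCAAT word in each of 2 separate stretches and a TATAAA word after the annotated start. In Rps19 only 5 bases and in Rps4x 7 bases of the same window were footprinted in all 3. The peaks of Rplp0 covered the whole part shown, which those of the other 2 genes did not. On the X chromosome the peaks of Rps4x reached down to bases 102189201, 102189261 and 102189201, past the part shown. They held 3, 2 and 3 footprints, 2 of them shared. The peak of Rps19 in replicate 3 began at base 24884361, inside the part shown. The peak of Rps19 ended in all 3 replicates at base 24884680 of chromosome 7, past the part shown, and held 5, 8 and 7 footprints, 5 of them shared by all 3 replicates.

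By role, the large subunit genes had a median of 7.12 and the small subunit genes one of 8.74, as medians of the means. The stalk genes had 8.06 over 3 genes and the open paralogs 10.8 over 4. In each replicate the small subunit median was the higher of the 2 subunits: 7.93 against 6.69, 10.3 against 8.76 and 7.89 against 5.72. The interquartile ranges of the means overlap, at 4.97 to 10.5 for the large and 6.78 to 11.5 for the small subunit. Rps19bp1 had 6.34, 8.23 and 5.78, inside the range of both.

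The 19 mouse genes whose human counterparts are mutated in Diamond-Blackfan anemia were all open. Their median was 9.36, beside 7.83 for the other 58 subunit and stalk genes, with interquartile ranges of 5.68 to 11.3 and 5.78 to 11.1. Rps19 had 9.01, 15.3 and 9.13. Rpl5 and Rpl11, which bind the 5S ribosomal RNA and, when free, the p53 regulator Mdm2, differed from each other: Rpl5 had 8.17, 11.4 and 8.57, and Rpl11 had 4.801, 6.89 and 4.45, with no overlap. Rps14, the gene lost in the human 5q- syndrome, had 5.71, 6.46 and 5.24. Rpsa, which also carries the name of a laminin receptor, had 7.93, 12.6 and 8.12.

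The X-linked genes were on the low side, a pattern noticed after the values were seen. Rps4x, Rpl39, Rpl36a and Rpl10 had a median of 4.37, beside 8.35 for the 78 open autosomal members. Rpl10 had 3.81, 7.68 and 3.65. A like difference held over all open protein-coding genes, with 2.82 on the X chromosome and 5.72 on the autosomes.

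Replicate 2 had the highest signal at 82 of 82 open genes, beside 75.4% of all 11131 open genes and 85.2% of the 8631 open genes within the same range of mean signal. The median ratio of replicate 2 to replicate 1 was 1.44 for the set and 1.29 for all open genes. Of the lists described below, replicate 2 was also the highest at 22 of 22 pyrimidine-tract genes and translation factors. The counts were 20 of 22 for ribosome assembly genes and 59 of 78 for mitochondrial ribosomal protein genes. Replicate 2 had the most peaks of the 3 libraries. Across the 82 genes replicates 1 and 3 were close, with a Pearson correlation of log2 signal of 0.97, beside 0.90 for replicates 1 and 2 and 0.91 for 2 and 3. The ratio of the highest to the lowest replicate had a median of 1.51, was above 2 for 9 genes and below 1.2 for 10. It was widest for Rps18 (6.09, 15.9 and 7.62), Rps26 (3.31, 8.34 and 3.21) and Rpl38 (3.70, 8.83 and 4.77). The ratio was narrowest for Rpl36 (7.89, 8.17 and 7.55), Rpl35a (5.56, 6.03 and 5.67) and Rps10 (6.09, 6.44 and 5.85). At Rps26 the strongest peak of replicate 2 did not overlap those of replicates 1 and 3, so its ratio sets different peaks against each other.

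Gene structure that the symbols do not give was also set beside the signal. A start on the opposite strand lies within 1 kb upstream of 19 of the 86 genes (22.1%, beside 14.1% of all protein-coding genes). For 12 of these the partner is protein coding, such as Med22 at 87 bp from Rpl7a, Ndufa7 at 10 bp from Rps28 and Lias at 53 bp from Rpl9, and Rps29 lies 109 bp from Rn7s1, the gene of the 7SL RNA of the signal recognition particle. Members with such a partner had a median of 10.99 and those without one of 7.74, beside 7.13 and 5.02 over all open genes. The interquartile ranges of the members were 7.45 to 12.7 with a partner and 5.60 to 10.1 without. Without replicate 2 the medians were 8.72 and 6.83. A peak between 2 starts belongs to both, and such values cannot be divided between the genes. At Rpl18, Rps25 and Rpl12, however, the strongest peaks lay past the main start, on the side away from the partner. Small nucleolar RNAs, which guide modification of ribosomal RNA, lie within 30 of the 86 genes (34.9%, beside 1.27% of all). Hosts had a median of 8.85 and the other open members 7.76, beside 7.24 and 5.57 over all open genes. The interquartile ranges of hosts (5.56 to 12.1) and other open members (5.79 to 11.03) overlap almost fully. The comparisons of X linkage, partners and hosts were chosen after values had been seen.

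The promoter peaks were as wide as those of other genes, with medians of 260, 220 and 240 bp beside 260, 240 and 240 bp. The widest mean peaks were those of Rpl30 (540, 240 and 500 bp), Rps23 (340, 420 and 420 bp) and Rpl39 (460, 240 and 480 bp). The narrowest was that of Rpl17 (160, 200 and 160 bp), followed by Rpl23 (200, 180 and 180 bp), Rpl36 (180, 180 and 200 bp), Rpl7a (200, 180 and 180 bp) and Rps6 (200, 160 and 200 bp), which tied. The centre of the peak lay at a median of -19, -29.5 and -30 bp from the nearest annotated start, negative being upstream, beside -27.5, -37.5 and -30.5 bp for all open genes. The peak covered an annotated start at 93.9%, 96.3% and 91.5% of the set, beside 81.1%, 80.8% and 83.1%.

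In 72 of the 82 genes the strongest peak covered a start in all 3 replicates, and in 2 it did so in none. Rpl37 starts at base 5116645 of chromosome 15, and its peaks ended at 5116600, 5116620 and 5116620, all upstream. Rpl4 starts at base 64173375 of chromosome 9. Its strongest peaks (4.23, 6.11 and 4.05) ended at or before base 64173200, towards Zwilch, whose start is 271 bp away on the other strand, and the peak over the start of Rpl4 itself had 2.42, 4.38 and 2.41. The strongest peak of Rpl7 covered a start in 1 replicate, although a peak of 3.86, 5.94 and 4.06 lay over a start in all 3. In the remaining 7 genes the strongest peak covered a start in 2 replicates.

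Footprints numbered a median of 5 per promoter peak in each replicate, the same as over all open genes. Per 100 bp of peak the median was 2.04, beside 1.91. Footprints that overlapped in all 3 replicates numbered a median of 3, again as over all open genes, and 60 of the 82 genes had 3 to 5. These were counted over the whole span of the 3 replicates' strongest peaks, so a shared footprint can lie outside the peak of a replicate. The most were found at Rps18 (8), Rpl7 (7) and Rps23 (7). At Rpl7 the strongest peak of replicate 2 did not overlap those of replicates 1 and 3. Its peaks held 3, 3 and 12 footprints, so the 7 do not all lie within each peak. The fewest were at Rpl31, which had 5, 2 and 1 footprints and none shared, and at Rps3a1 and Rpl34, with 1 shared each. Rps3a1 was among the strongest promoters (11.5, 16.1 and 13.9), so a high signal did not bring many shared footprints there. Across the 82 genes the Spearman correlation of mean signal was -0.054 with the number of footprints, -0.15 with peak width and 0.32 with the CpG ratio of the promoter. These are descriptions across genes, which are not independent replicates, and all points share the same 3 libraries.

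**Figure D3:**
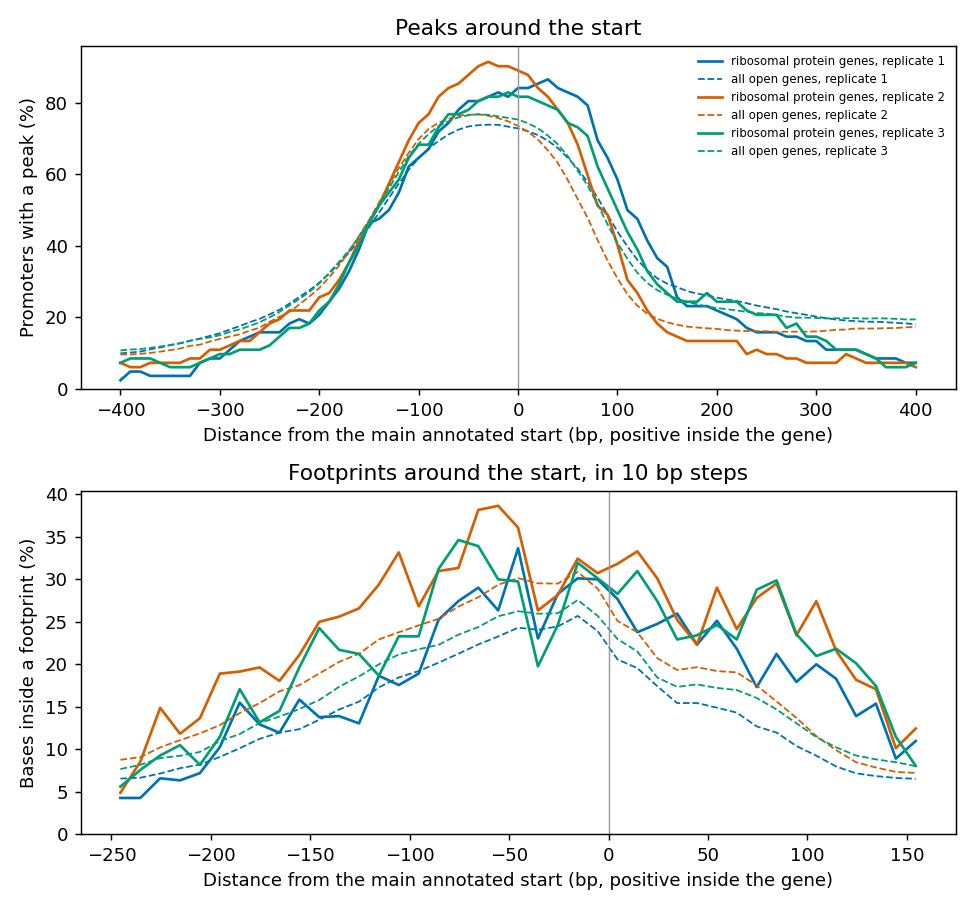
Upper panel, share of promoters (percent) with a shorter-list peak at each distance from the main annotated start (x axis, bp). Lower panel, share of bases inside a footprint in steps of 10 bp; solid lines are the 82 open ribosomal protein genes and dashed lines all 11131 open genes, with 1 colour per replicate. Inside the gene, between 80 and 89 bp after the start, 26.9% of the bases of the ribosomal protein genes lay in a footprint as a mean of 3 replicates, beside 14.1% for all open genes.

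Along the promoter the share of footprinted bases differed from that of other genes by position. From 70 to 61 bp before the main start, 33.7% of bases were footprinted as a mean of the 3 replicates, beside 24.9% over all open genes. Between 40 and 31 bp before the start the share was 23.05%, beside 26.5%. Past the start it was higher in the set: 29.3% beside 21.6% from 10 to 19 bp, and 26.9% beside 14.1% from 80 to 89 bp. Counting bases footprinted in all 3 replicates, the last step held 12.6% beside 4.83%. In each replicate the solid line lay above the dashed one there. More promoters of the set also had a peak there. At 80 bp after the start the shares with a peak were 69.5%, 51.2% and 62.2%, beside 53.5%, 41.6% and 51.6% of open genes. How much of the footprint difference goes with this was not tested.

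Short motif words were then counted from 250 bp before to 50 bp after the main start, on both strands unless stated. Among the words searched, the largest ratio of shares was that of TCTCGCGA, a CGCG word of the kind bound by ZBTB33. It was found in 14 of 86 promoters (16.3%), beside 1.38% of all protein-coding promoters and 2.47% of open ones. Of the 82 open genes, 7 (8.54%) had the word inside a footprint in all 3 replicates, beside 1.18% of open genes. The sites of 5 of these 7 are printed to show the word and its surroundings where it was protected in every replicate. The sequences are RefSeq GRCm38, on the gene's strand. Capitals mark the word, on either strand, where it lay inside a footprint in all 3 replicates.
Rpl10a (chr17:28328518-28328558, plus strand): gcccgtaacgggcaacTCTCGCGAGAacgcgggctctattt
Rpl26 (chr11:68901524-68901564, plus strand): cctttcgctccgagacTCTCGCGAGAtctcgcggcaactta
Rpl7a (chr2:26910739-26910779, plus strand): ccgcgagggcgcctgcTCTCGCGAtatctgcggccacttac
Rps15a (chr7:118116189-118116229, minus strand): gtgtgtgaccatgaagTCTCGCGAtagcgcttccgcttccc
Rps28 (chr17:33824537-33824577, minus strand): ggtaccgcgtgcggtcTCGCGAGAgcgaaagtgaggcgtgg
At Rpl10a and Rpl26 the word overlaps its own reverse complement, which gives 10 letters in capitals. Rps28 holds the same 10 letters, but only the word on the opposite strand was footprinted in all 3 replicates and is in capitals. Rpl7a, Rps28 and Rpl17 hold the site within 10 bp of the start. The first 2 were among the strongest promoters, while Rpl17 had 7.51, 10.5 and 7.23, near the median of the set. A match is a description of letters and not a binding event, and which factor protects these bases was not tested.

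**Figure D4:**
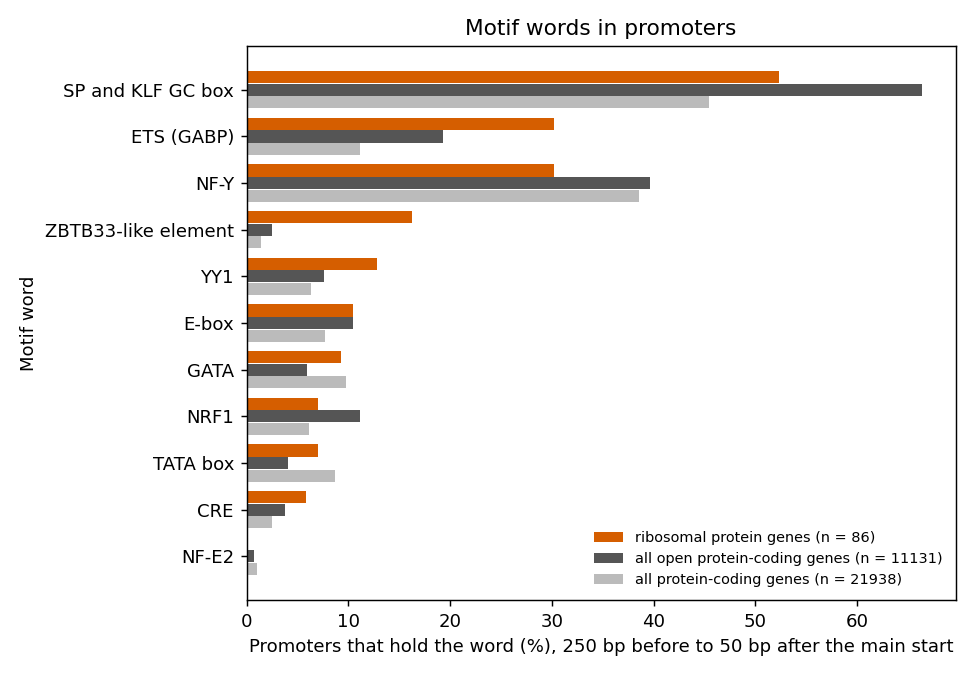
Share of promoters (x axis, percent) that hold each motif word from 250 bp before to 50 bp after the main start, for the 86 ribosomal protein genes, all 11131 open genes and all 21938 protein-coding genes. The ZBTB33-like word reaches 16.3% in the ribosomal protein genes and 2.47% in open genes, while the GC box is less frequent in them (52.3%) than in open genes (66.4%).

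The ETS word CCGGAAG, bound by GABP, occurred in 30.2% of the set, beside 11.2% of all and 19.3% of open promoters, and the YY1 word AAGATGG in 12.8%, beside 6.32% and 7.64%. The GC box GGGCGG, bound by SP and KLF factors, occurred in 52.3%, beside 45.4% of all promoters and 66.4% of open ones. CCAAT, the NF-Y word, occurred in 30.2%, beside 38.6% and 39.6%. The NRF1 word occurred in 6.98%, beside 6.13% and 11.2%. All 6 genes that held it had it in a footprint in all 3 replicates, which is 7.32% of the open genes of the set, beside 9.31% of all open genes. TATAAA on the gene's strand occurred in 6.98%, beside 8.71% and 4.06%, CACGTG in 10.5%, beside 7.72% and 10.5%, and TGACGTCA in 5.81%, beside 2.48% and 3.74%. The words of red cell factors were counted too. The one bound by GATA1, read as AGATAA, was in 9.30%, beside 9.78% of all and 5.96% of open promoters, and was footprinted in all 3 replicates in 0 genes of the set and 0.135% of open genes. TGANTCAGC, the NF-E2 word, was in none of the 86, beside 1.04% and 0.746%.

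Pyrimidine words were counted on the gene's strand only. The word CTTCC occurred in 64.0% of the set, beside 45.5% of all and 49.5% of open promoters. The shares for CTTTC were 47.7%, 32.8% and 31.03%. Those for the third word, CTTTT, were 41.9%, 29.3% and 25.8%. An ETS word on the opposite strand holds the first of these words, so the searches overlap in part.

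A pyrimidine tract exactly at the main annotated start, read as a C followed by at least 4 pyrimidines, was found in 9 of 86 genes (10.5%), beside 2.27% of all protein-coding genes. Within 10 bp of the start it was found in 44.2% beside 30.8%. Over all annotated starts, 35 genes (40.7%) had at least 1 such start, beside 8.52% of all genes. Counted by start, it was 47 of 486 starts (9.67%) beside 2.18%. Of the 9 genes, 8 are printed from 10 bp before to 19 bp after the main start, since they show the element by which the mRNAs are known, with the run of C and T from the start in capitals (RefSeq GRCm38, on the gene's strand).
Rpl37 (chr15:5116635-5116664, plus strand): ggggtgctttCTCTTCCggtctctttggcc
Rps21 (chr2:180257367-180257396, plus strand): cgaggacccgCCCTCCTgcccaatagtgct
Rps24 (chr14:24490708-24490737, plus strand): gtgagcggtcCTCTTTTCCTCCTCTCCagc
Rpl36 (chr17:56613406-56613435, plus strand): cggtgccgttCTTCCTgtcccggccgccat
Rpl37a (chr1:72711280-72711309, plus strand): gcgtcccttcCTCTTCggacttgggcttgg
Rpl4 (chr9:64173365-64173394, plus strand): caagtctttcCTTTTCCTgtgggagcagcc
Rpl32 (chr6:115808728-115808757, minus strand): gccgccgcctCTTCCTTCTTCCTCggcgct
Rps27rt (chr9:114982720-114982749, minus strand): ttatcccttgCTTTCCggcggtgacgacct
The runs shown were 6 to 17 bases long. In some genes, such as Rpl37, Rpl4 and Rpl37a, the pyrimidines begin before the annotated start. Rps27rt has the same kind of start but no open promoter. Annotated starts can miss the true start by some bases, so the share at the main start depends on the annotation.

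Copies of these genes elsewhere in the genome bear on what can be mapped. The median share of 32-base words within 500 bp of the start that occur once was 96.6%, beside 100% over all genes, and 14 of the 86 genes (16.3%) were free of repeated words, beside 57.7%. The median was 100% upstream of the start and 96.2% downstream, but some genes went the other way. Rps29 had 59.3% in all, with 41.8% upstream and 74.0% downstream, and yet the third highest signal. Across the open genes the Spearman correlation of the share with signal was -0.058. The CpG ratio of the promoters had a median of 0.812, beside 0.571 over all genes, open or not. It was also above that value in the other lists described below. Mitochondrial ribosomal protein genes had 0.728, ribosome assembly genes 0.784, and pyrimidine-tract genes and translation factors 0.864.

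Regions open in all 3 replicates and over 1 kb from any annotated start were counted within 50 kb of each gene. The set had a median of 1 and a mean of 1.22, beside 0 and 0.746 over all protein-coding genes, open or not, and 33 of the 86 (38.4%) had none, beside 59.3%. The other lists described below also lay above all genes. Pyrimidine-tract genes and translation factors had a median of 1 and a mean of 1.64, with none at 22.7%. Mitochondrial ribosomal protein genes had 1 and 0.897, with none at 43.6%. Ribosome assembly genes had 0.5 and 1, with none at 50%. The 19 Diamond-Blackfan genes had a median of 0, and 13 of them (68.4%) had none.

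The other genes of translation were open throughout. All 22 listed genes with a pyrimidine tract or a role as a translation factor were open, with a median of 8.24, from Pabpc1, the poly(A)-binding protein (12.8, 21.1 and 15.2), to Rack1, a protein of the small subunit head (4.61, 5.02 and 4.61). All 22 genes of ribosome assembly were open, with a median of 6.16, from Nop56, a core protein of box C/D particles (14.2, 23.6 and 14.3), to Tsr2, a chaperone of Rps26 (1.36, 2.06 and 1.49). All 78 genes for mitochondrial ribosomal proteins were open, with a median of 5.95, from Mrpl17 (14.8, 24.98 and 14.1) to Mrpl24 (1.70, 2.59 and 1.66). The medians of the assembly and mitochondrial genes lay nearer to the 5.60 of all open genes than to the 7.96 of the cytosolic ribosomal protein genes, and all ranges overlap.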

How the data were processed

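DNase-seq of 3 liver libraries was used as deposited. Per the deposited notes beside the files, each replicate was handled separately on mm10. Which aligner and callers made them is not given in the sources used here. In the peak lists the signal is, per those notes, the highest cut density normalized to depth by the authors. The FDR per stretch of bases is a p-value type of measure the authors deposited, listed only below 0.05, and every deposited footprint carries a q-value of 0.01, so footprints were only counted.

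Gene starts are those of GENCODE M21, and sequence is RefSeq GRCm38. The main start is that of the best supported coding transcript. Peaks, footprints and words were joined with Python 3.11.15 and numpy 2.4.6, and the promoter measures were tested on simulated data. Members and lists were chosen with earlier results of these data known. Genes named are those not open, the 6 highest and 6 lowest by mean signal, the 3 at each end of width, shared footprints and replicate ratio, fixed names (Rplp0, Rplp1, Rplp2, Rpsa, Rps19, Rpl5, Rpl11, Rps14 and Rps19bp1) and the ends of each other list; any other gene was named after its values were seen. Single values of 3 members, which stay in all counts and medians, are not reported here. Alternatives were the longer list, windows of 250 and 1000 bp, the outermost start only, the upper 50% of peaks, each replicate left out, an overlap of 50%, other footprint, motif and start windows and, chosen after seeing the data, names ending in -ps and a number and peaks that cover a start.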

Additional observations from a re-analysis of the deposited data

How the results depend on the processing

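No paired analysis between groups was possible because the 3 replicates form 1 group. The count of open genes ran from 78 to 82 over all alternatives, and leaving out any 1 replicate gave 82 each time. Leaving out 1 replicate gave a median signal of 7.06 to 8.64, a width of 240 to 250 bp, 5 footprints and a centre of -30 to -19 bp. With the outermost start only, the median centre moved from -23 to -8.83 bp, and Rpl17, Rps10 and Rps14 had no peak in the window. A window of 500 bp on either side, which is longer by construction, gave a word share, beside that of all protein-coding genes, of 46.5% beside 19.4% for ETS, 87.2% beside 61.6% for the GC box, 30.2% beside 18.7% for YY1, 27.9% beside 16.9% for CACGTG, 86.0% beside 73.6% for CTTTC, 93.0% beside 82.7% for CTTCC and 74.4% beside 71.1% for CTTTT. The set was below all genes for TATAAA (16.3% beside 20.6%), CCAAT (61.6% beside 69.98%) and AGATAA (22.1% beside 29.8%). A pyrimidine run within 10 bp of the start raised the share from 10.5% to 44.2%. The signal of all open genes is set by which peaks are listed: with the upper 50% of peaks its median was 6.59, and that of the set 8.06. An unlisted base or peak is not proof of closed chromatin at these depths.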
